A study of Drosophila melanogaster with 12 samples.

Results

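The genes described here encode the nuclear subunits of complexes I, III and IV of the mitochondrial respiratory chain and of the ATP synthase, called complex V. They were chosen by name alone, as the genes whose present symbol begins with ND- (complex I), UQCR- (complex III), COX4 to COX8 (complex IV) or ATPsyn (complex V) and which have a probe set, the group of array probes read as 1 value, that belongs to no other gene. Of 11982 genes named in this way on the array, 66 were members, 32 of complex I, 6 of complex III, 14 of complex IV and 14 of complex V. A further 14 genes of the reference table carry such a symbol and had no probe set of their own here, among them the complex I core genes ND-23, ND-24, ND-30 and ND-49 and the complex III core genes UQCR-C1 and UQCR-C2. For the 6 members with several probe sets, the one with the highest mean signal was taken.

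RNA came from female flies aged 7 to 12 days, kept with males and given no infection or other treatment, in pools of 20 flies. Flies were dissected into the gut and the carcass, which is the body without head and gut and holds the fat body, flight muscle and ovaries. Each tissue was taken from wild type (wt) flies and from nub1 flies, with 3 pools and arrays in each of the 4 groups, to ask which transcripts depend on the POU transcription factor Nub in healthy flies. The nub1 flies also carried the b1 and pr1 alleles, so every nub1 group shares those with the nub1 allele. The wt flies were OregonR and w1118 by the sample labels and OregonR alone by the design text, and differences between strains cannot be told apart from the effect of the alleles. The mutation was present in every cell of the fly, and it is known from earlier work to reduce the nub-RD transcript of nub.

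The respiratory chain sits in the inner mitochondrial membrane. Complex I takes electrons from NADH and complex II from succinate, ubiquinone carries them to complex III, cytochrome c carries them to complex IV, and oxygen receives them there. Complexes I, III and IV pump protons across the membrane, and the ATP synthase lets the protons back and makes ATP. Most subunits are encoded in the nucleus and imported, and Drosophila has for many of them a second gene, often with a symbol ending in L, that is used in the testis. Flight muscle and the absorptive cells of the midgut are both rich in mitochondria.

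Averaged over each list, the tissue markers lay where the labels put them. The mean log2(signal + 10) of 11 measured midgut enterocyte genes was 11.4 to 12.1 in gut and 6.52 to 7.55 in carcass. That of 14 flight muscle genes was 8.20 to 8.60 in carcass and 6.24 to 6.98 in gut. In wt the flight muscle genes Mlc1, Tm2, up and Prm had higher means in gut, with 1353 against 837 in carcass for Mlc1. The other genes of that list had higher means in wt carcass. The probe set of nub, which was not assigned to 1 of its transcripts and so is no check of the label, gave 203 to 317 in wt gut, 385 to 566 in nub1 gut and at most 8.42 in carcass. The signal of purple (pr) was 124 to 139 on the nub1 arrays and 235 to 345 on the wt arrays. Eggshell and ovary transcripts (18 genes, 10.5 to 10.8 in carcass) varied within the gut groups, from 4.84 to 8.94 in wt and from 4.82 to 8.98 in nub1, and were highest on wt gut replicate 3 and nub1 gut replicate 2. The 4 measured ejaculatory duct genes, of 9 listed, had means of 7.31 and 8.99 on nub1 gut replicates 1 and 3, against 5.22 to 6.05 on the other 10 arrays. Dup99B gave 444 and 781 on these 2 arrays, 86.0 on nub1 carcass replicate 2 and under 10 on the others. Ebp and EbpII gave 123 and 104 on replicate 3, but 7.53 and 4.49 on replicate 1. EbpIII was bright on every gut array, at 4209 to 5568 over both genotypes. Signals are MAS5 values scaled to a trimmed mean of 100 on every array, and the median signal of an array ran from 7.81 to 14.9. Only 3 arrays per group limit the precision, and an exact permutation test of 3 arrays against 3 cannot go below p = 0.1, so the tests come from limma fitted over all probe sets.

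The members fell into 2 classes by their signal. A member was called bright when its mean signal reached 100, the scaled array average, in at least 1 of the 4 groups, and 46 were, with 25 in complex I, 3 in complex III, 8 in complex IV and 10 in complex V. The other 20 were dim. No member lay near that limit: the lowest of the bright members by its highest group mean was ND-75, with 388 in nub1 carcass, and the highest of the dim members was ND-B8, with 79.3 in nub1 carcass. Of the 20 dim members, 17 have a symbol ending in L or in L and a number, the form given to testis-type copies, and the other 3 are ND-B8, ND-B12 and UQCR-11. Among the 46 bright members, COX7AL2 was the 1 with such a symbol. Of the bright members, 45 had a signal of 100 or more on all 12 arrays, and COX7AL2 fell short of it on nub1 gut replicate 2, at 87.6.

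In the gut the bright members as a body lay lower in nub1 than in wt, and in the carcass they lay slightly higher. The mean log2(signal + 10) over the 46 bright members was 10.60, 10.64 and 10.54 on the 3 wt gut arrays, against 10.42, 10.23 and 10.40 on the 3 nub1 gut arrays. Every nub1 gut array was therefore below every wt gut array. In carcass the wt arrays gave 10.37, 10.37 and 10.33 and the nub1 arrays 10.38, 10.55 and 10.57, so that nub1 replicate 1 sat close to the wt arrays and replicates 2 and 3 above them. Replicate 1 held the lowest nub1 carcass signal for 45 of the 46 genes, and nub1 gut replicate 2 the lowest gut signal for 35. In a dissected tissue, fewer cells of a type and less RNA per cell cannot be told apart.

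**Figure D1:**
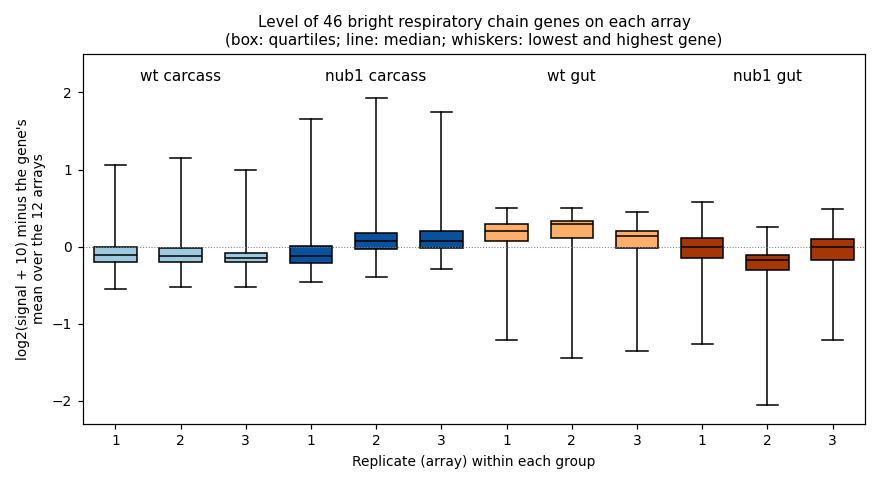
Level of the 46 bright members on each of the 12 arrays, as log2(signal + 10) minus the mean of the same gene over the arrays. Boxes give the quartiles, the line the median and the whiskers the lowest and highest gene. The medians of the wt gut arrays lie at 0.14 to 0.29 and those of the nub1 gut arrays at −0.18 to −0.004, and the long whiskers are COX7AL2, which is far lower in gut.

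Of the 46 bright members, 21 were lower in nub1 gut than in wt gut and 0 were higher (limma, adjusted p under 0.05 over all probe sets tested), with none past 2-fold. Their median log2 fold change was −0.23, a signal 14.7% lower, and 42 of the 46 had a negative value. Among all 9782 probe sets tested in gut, 20.8% were lower and 14.1% higher, 9.28% were called with a fold of at least 2, and the median was −0.06. Among the 6520 of these that were bright the share called lower was 18.7% and the median −0.01. In 27 of the 46 members all 3 nub1 gut arrays lay below all 3 wt gut arrays, which held for 24.2% of all probe sets tested, and in 0 members above, against 16.6%. The 21 called genes are all among those 27. By complex the members called lower were 14 of 25 in complex I (median −0.31), 1 of 3 in complex III (−0.24), 2 of 8 in complex IV (−0.17) and 4 of 10 in complex V (−0.20).

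**Figure D2:**
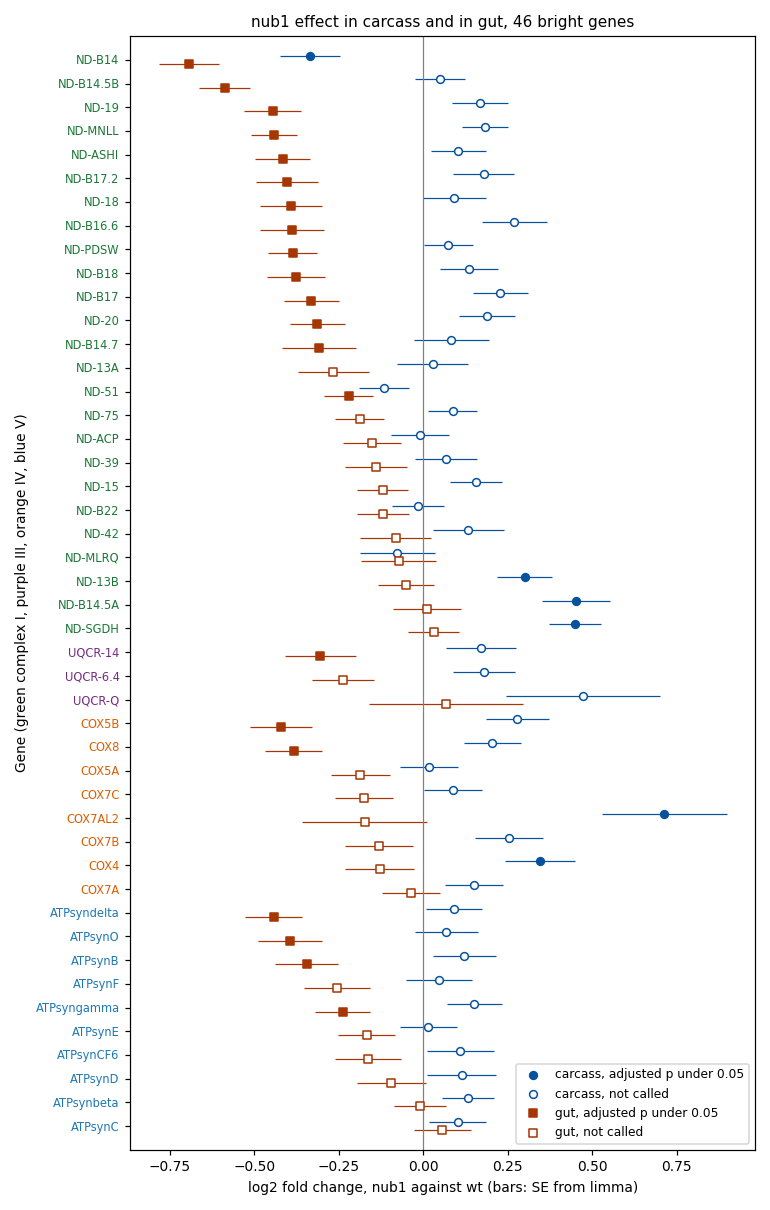
Log2 fold change of nub1 against wt for each bright member, in carcass (blue circles) and gut (brown squares), with the SE from limma as bars, ordered by the gut value within each complex. Filled symbols have an adjusted p under 0.05. The gut values lie to the left of the carcass values for 45 of the 46 genes, and ND-MLRQ is the exception.

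The largest falls in gut were in accessory subunits of complex I. ND-B14 encodes a small LYR-motif subunit that holds an acyl carrier protein in the arm reaching into the matrix. Its signal was 1120.2, 1144 and 1001 in wt gut, against 693, 604 and 711 in nub1 gut, a log2 fold change of −0.69 (adjusted p = 0.00012, SE 0.09). ND-B14 was also the 1 bright member called lower in carcass, from 857 ± 31.9 to 678 ± 45.8 (SD, n = 3), a log2 fold change of −0.34 (adjusted p = 0.024, SE 0.09). In either tissue all nub1 arrays of this gene were below all wt arrays. The test of the difference between the tissues did not pass for this gene, at −0.36 (adjusted p = 0.083, SE 0.13). The carcass call was lost when any of wt carcass replicates 1 and 2 and nub1 carcass replicates 1 and 2 was left out, with an adjusted p of up to 0.12 over the alternatives.

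ND-B14.5B encodes a subunit of the membrane arm. Its signal was 1179.5, 1219.9 and 1301 in wt gut and 834, 829 and 788 in nub1 gut, which do not overlap, with a log2 fold change of −0.59 (adjusted p = 0.00011, SE 0.08). In carcass the same gene gave 907, 921 and 913 in wt and 888, 1024 and 929.6 in nub1, where the ranges overlap and the log2 fold change was 0.05 (SE 0.08). ND-MNLL, another membrane arm subunit, gave 1631, 1638 and 1591 in wt gut and 1209, 1167 and 1194 in nub1 gut, a log2 fold change of −0.44 (adjusted p = 0.00041, SE 0.07). The spread within each gut group was small beside that gap, with an SD of 25.4 in wt and 21.2 in nub1. ND-19, a subunit with paired cysteine motifs on the side of the intermembrane space, went from 1088, 1171 and 1102 to 856, 782 and 823, a log2 fold change of −0.45 (adjusted p = 0.0017, SE 0.08). Its nub1 arrays were all below the wt arrays.

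Membrane arm and matrix arm subunits were both among the genes that fell. Of 13 bright members placed in the membrane arm by the structures of the mammalian and fly enzymes, 9 were called lower in gut, with a median of −0.38. Those not yet named are ND-ASHI (−0.42), ND-PDSW (−0.39), ND-B16.6 (−0.39), ND-B18 (−0.38), ND-B17 (−0.33) and ND-B14.7 (−0.31), all as log2 fold changes with adjusted p of 0.0016 to 0.047. Of 10 placed in the matrix arm, 5 were called lower, with a median of −0.24, and the split by arm was made after the values had been seen. ND-18 (−0.39, adjusted p = 0.0068) and ND-B17.2 (−0.40, adjusted p = 0.0052) are accessory subunits of that arm, known from mammals to be needed late in its assembly. ND-MLRQ and ND-ACP, the acyl carrier protein, were placed in neither arm, and neither was called. ND-MLRQ, the brightest ND- gene in gut, was counted in complex I by its symbol alone. It gave 7189, 7569.8 and 6142 in wt gut and 7148, 5604 and 7158 in nub1 gut, with overlapping ranges.

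Of the 7 nuclear core subunits of complex I, those with the flavin and iron-sulphur clusters that pass the electrons on, 3 could be measured alone. ND-20, which holds the cluster next to ubiquinone, had 1158, 1158 and 1108 in wt gut and 941, 828 and 986 in nub1 gut, a log2 fold change of −0.31 (adjusted p = 0.011, SE 0.08). ND-51, which binds NADH and the flavin, had 885, 957 and 859.9 in wt gut and 809, 730.3 and 775 in nub1 gut, a log2 fold change of −0.22 (adjusted p = 0.036, SE 0.07). The ranges of neither gene overlap. ND-75, the largest subunit, had 292, 299 and 281 in wt gut and 266, 249.9 and 246 in nub1 gut, also without overlap, and its log2 fold change of −0.19 (adjusted p = 0.064, SE 0.07) missed the threshold. In carcass these genes gave 0.19, −0.12 and 0.09, and none was called.

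In complex III the gene called lower in gut was UQCR-14, a small subunit that binds near the cytochrome b core. It gave 3865, 3873 and 3263 in wt gut and 3204, 2551 and 3162 in nub1 gut, a log2 fold change of −0.31 (adjusted p = 0.041, SE 0.10). Every nub1 array was below every wt array, with replicate 2 the lowest. The values for UQCR-6.4 and UQCR-Q were −0.24 (adjusted p = 0.063, SE 0.09) and 0.07 (adjusted p = 0.84, SE 0.23). In complex IV, COX5B, a zinc-binding subunit on the matrix side, gave 3866, 4014 and 3647 in wt gut and 3006, 2573 and 3044 in nub1 gut, a log2 fold change of −0.42 (adjusted p = 0.0043, SE 0.09). COX8, a small membrane subunit, gave 4581, 4590.4 and 4226 in wt gut and 3646, 3056 and 3583 in nub1 gut, a log2 fold change of −0.38 (adjusted p = 0.0044, SE 0.08). Both genes were without overlap between the genotypes. The other 6 bright members of complex IV had negative values from −0.19 (COX5A) to −0.04 (COX7A) and were not called.

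Of the 10 bright members of the ATP synthase 9 had negative values in gut, and 4 were called lower. ATPsyndelta, of the central stalk, gave 2469, 2691 and 2330.2 in wt gut and 1966, 1726 and 1809 in nub1 gut, a log2 fold change of −0.44 (adjusted p = 0.0018, SE 0.08). ATPsynO, which joins the peripheral stalk to the catalytic head, gave 3136, 3278 and 2883 in wt gut and 2554, 2076 and 2453 in nub1 gut, a log2 fold change of −0.39 (adjusted p = 0.007, SE 0.09). The ranges of both genes were apart. ATPsynB of the peripheral stalk (−0.34, SE 0.09, adjusted p = 0.013) and ATPsyngamma of the central stalk (−0.24, SE 0.08, adjusted p = 0.041) were the others called lower. ATPsynF, a membrane subunit and the brightest member of the complex in gut, gave 4283, 4634 and 3956 in wt and 3851, 3096 and 3865 in nub1, without overlap, and its log2 fold change of −0.26 (adjusted p = 0.06, SE 0.10) missed the threshold. The peripheral stalk genes ATPsynCF6 (−0.16) and ATPsynD (−0.09) and the membrane subunit gene ATPsynE (−0.17) were not called, and their arrays overlapped. The catalytic subunit gene ATPsynbeta gave 2039, 2209.8 and 2026 in wt and 2093, 1969 and 2171 in nub1, a log2 fold change of −0.01 with overlapping ranges. ATPsynC, of the proton-carrying ring, gave 0.06 (SE 0.08), and the catalytic head gene blw, the alpha subunit, which the naming rule does not cover, gave 0.10 (adjusted p = 0.45, SE 0.09).

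**Figure D3:**
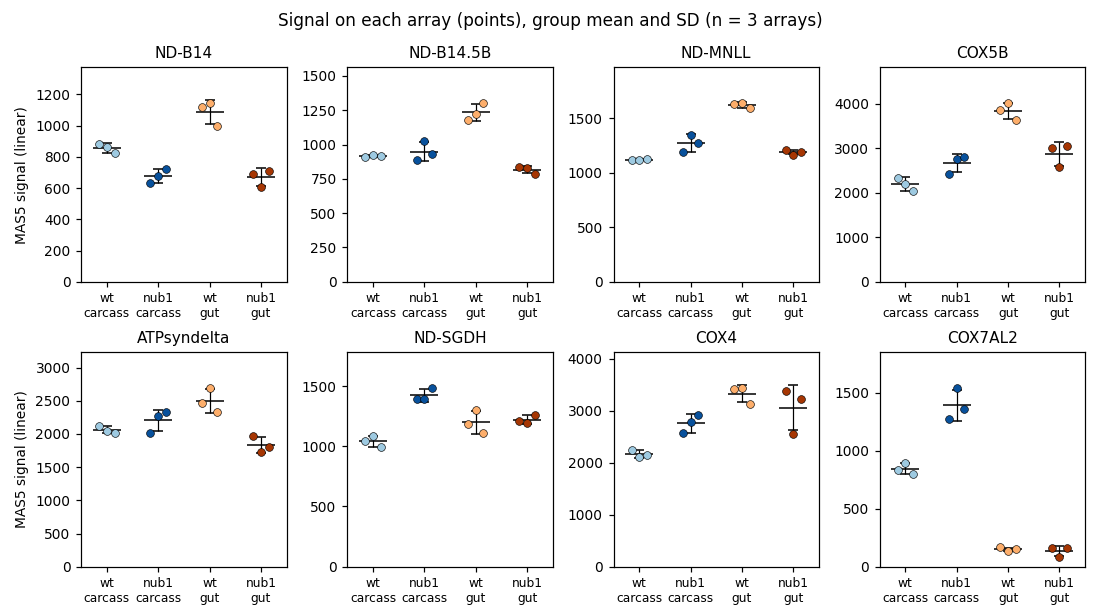
MAS5 signal of 8 bright members on each array (points) with the mean and SD of 3 arrays, on linear axes that start at 0. ND-B14, ND-B14.5B, ND-MNLL, COX5B and ATPsyndelta have all nub1 gut arrays below all wt gut arrays, and ND-SGDH, COX4 and COX7AL2 have all nub1 carcass arrays above all wt carcass arrays.

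Marker lists of other tissues moved with the gut result. Markers of body wall and visceral muscle, of which 3 of 5 could be measured (Act87E, Mp20 and TpnC73F), were lower in nub1 gut, with a mean log2(signal + 10) of 9.94, 9.75 and 9.52 in wt and 9.44, 8.68 and 9.29 in nub1. Their summed signal was 2759 to 3628 in wt gut and 1650.0 to 2871 in nub1 gut. The 14 flight muscle markers summed to 3631 to 4269 in wt gut and 2162 to 3594 in nub1 gut, while their mean log2(signal + 10) overlapped, at 6.84, 6.73 and 6.73 in wt and 6.98, 6.24 and 6.54 in nub1. Both muscle lists were lowest on nub1 gut replicate 2, the array on which most members were lowest. The fat body markers, of which 10 of 12 were measured, had a mean of 8.72, 8.75 and 8.59 in wt gut and 7.78, 7.96 and 8.33 in nub1 gut, and summed to 16128 to 21028 in wt and 7557 to 13536 in nub1. Every nub1 gut array was below every wt gut array for this list, which holds the yolk protein genes Yp1, Yp2 and Yp3, also used in the ovary, and of which Fbp1 was under 10 on all 12 arrays. Within the list Lsp2 went the other way, with a mean of 13.4 in wt gut and 30.8 in nub1 gut. The mean of the enterocyte markers overlapped, at 11.4 to 11.7 in wt gut and 11.5 to 12.1 in nub1 gut, while single genes went both ways. Mal-A1 rose from a mean of 913 in wt gut to 6437 in nub1 gut and Npc2f from 1708 to 3530. The mean of iotaTry fell from 1250 to 405. The part of these lists in the result was not tested.

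Of the 23 members called in gut, dim ones included, 6 passed under all 24 alternatives, namely ND-19, ND-ASHI, ND-B14, ND-B14.5B, ND-MNLL and ND-PDSW. Among the bright members the calls of ND-51, ND-B14.7, UQCR-14 and ATPsyngamma lay closest to the threshold, passed under 11, 7, 10 and 8 of the alternatives, and were lost when wt gut replicate 2 was left out. With arrays centred on their medians 12 bright members were called lower in gut, with the 6 gut arrays alone 11, and with the test named in the methods, which pools no spread over probe sets, 7. When nub1 gut replicate 2 was left out, 18 bright members were called lower and the median was −0.17. Without nub1 gut replicates 1 and 3, the arrays with ejaculatory duct transcripts, replicate 2 was the only nub1 gut array left, taken to vary like the other groups, and 32 bright members were called lower with a median of −0.37.

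In the carcass 5 bright members were higher in nub1 than in wt and 1 was lower, with none past 2-fold. Among all 8855 probe sets tested there 7.76% were higher and 7.70% lower, and 4.71% were called with a fold of at least 2. The 5 of 46 called higher are 10.9% of the bright members, close to the share of all probe sets. The median of the bright members was 0.13, a signal 9.16% higher, with 41 of 46 values positive, and the median of all probe sets tested was −0.02. In 16 of the 46 all nub1 carcass arrays lay above all wt carcass arrays, against 20.9% of all probe sets, and in 2 below, against 24.1%.

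ND-SGDH, a membrane arm subunit of complex I, gave 1041, 1082 and 996 in wt carcass and 1395, 1389.9 and 1483 in nub1 carcass, a log2 fold change of 0.45 (adjusted p = 0.0016, SE 0.08). Its gut arrays overlapped between the genotypes, with a log2 fold change of 0.03 (SE 0.08). ND-SGDH was the bright member whose carcass call passed under all 24 alternatives. ND-B14.5A, of the matrix arm, gave 683, 713 and 659 in wt and 835, 1046 and 956 in nub1, a log2 fold change of 0.45 (adjusted p = 0.0087, SE 0.10). ND-13B, another matrix arm subunit, gave 505, 479.9 and 462 in wt and 552, 623 and 615 in nub1, a log2 fold change of 0.30 (adjusted p = 0.027, SE 0.08). In each of these genes the ranges were apart. COX4, a subunit of complex IV through which ATP is known to act on the enzyme in mammals, gave 2246, 2103 and 2143 in wt and 2564, 2785 and 2914 in nub1, a log2 fold change of 0.35 (adjusted p = 0.04, SE 0.10). The call of ND-13B was lost without wt carcass replicate 2 or 3 or nub1 carcass replicate 2 or 3, with an adjusted p of up to 0.11 over the alternatives. That of COX4 was lost without any 1 of the wt carcass arrays, of nub1 carcass replicates 2 and 3 or of wt gut replicates 1 and 2, with an adjusted p of up to 0.15.

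COX7AL2, another gene for the COX7A subunit of complex IV, had the largest carcass log2 fold change among the members tested. It gave 834, 893 and 799 in wt carcass and 1274, 1539 and 1356 in nub1 carcass, a log2 fold change of 0.71 (adjusted p = 0.02, SE 0.18). All nub1 arrays were above all wt arrays, and the call was lost without wt carcass replicate 1 or 3 or nub1 carcass replicate 2 or 3, with an adjusted p of up to 0.082. Its namesake COX7A gave 1454, 1486 and 1484 in wt and 1550.3, 1626 and 1742 in nub1, a log2 fold change of 0.15 (adjusted p = 0.31, SE 0.09). The probe set of COX7AL2 is of the type that can match more than 1 transcript, as are those of 10 other bright members, so signal from related transcripts cannot be told apart. In complex III, UQCR-Q gave 347, 421 and 329.9 in wt and 354, 569 and 653 in nub1 carcass, and its log2 fold change of 0.47 (adjusted p = 0.22, SE 0.23) did not pass, with overlapping arrays. No bright member of complex V was called in carcass, where all 10 values were positive, from 0.01 (ATPsynE) to 0.15 (ATPsyngamma).

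On average the flight muscle markers moved with the carcass level of the members, but single genes went both ways. The largest rise was that of fln, from a mean of 290 in wt to 721 in nub1 carcass, while Zasp52 fell from 495 to 355. Tm2, TpnC41C, Mf, sls and bt also had lower means in nub1 carcass, and the other listed genes had higher ones. The mean log2(signal + 10) of the list was 8.40, 8.35 and 8.20 on the wt carcass arrays. It was 8.31, 8.53 and 8.60 on the nub1 carcass arrays, so that nub1 replicate 1 was within the wt range. Replicates 2 and 3 lay above all wt arrays, as they did for the mean of the bright members. The summed signal of the flight muscle list was 6893 to 7512 in wt and 6987 to 8381 in nub1 carcass. The midgut enterocyte markers were 6.52, 6.90 and 6.64 in wt and 7.55, 6.59 and 7.32 in nub1 carcass. Their part in the result was not tested. The number of bright members called higher in carcass was 2 without wt carcass replicate 3, nub1 carcass replicate 2 or nub1 carcass replicate 3, and 3 without wt carcass replicate 1 or 2. It was 8 without nub1 carcass replicate 1 and 10 without nub1 gut replicate 2, which enters the carcass test only through the shared spread.

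The difference between the tissues was tested directly, as the log2 fold change in gut minus that in carcass. For this difference 20 of the 46 bright members were called lower and 0 higher, against 8.67% lower and 5.29% higher among all 10199 probe sets tested. The median of the bright members was −0.40 and that of all probe sets −0.04. By complex 12 of 25 were called in complex I, 0 of 3 in complex III, 4 of 8 in complex IV and 4 of 10 in complex V. Of the 20, 17 had also been called lower in gut, and the other 3 were ND-SGDH, COX4 and COX7AL2, which had been called higher in carcass. Without wt carcass replicate 1 or 3, nub1 carcass replicate 3 or wt gut replicate 2, 13 bright members were called for the difference, and with arrays centred on their medians 7 were. By sign alone 37 bright members were positive in carcass and negative in gut.

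COX5B had a difference of −0.70 (adjusted p = 0.0048, SE 0.13), with 2342, 2198 and 2034 in wt carcass and 2428, 2758 and 2795 in nub1 carcass beside the gut values above. The difference of ND-B16.6, a complex I subunit also known from mammals as a cell death protein, was −0.66 (adjusted p = 0.0081, SE 0.14), and that of ND-MNLL was −0.62 (adjusted p = 0.0015, SE 0.10). Both lay on opposite sides of 0 in the tissues, at 0.27 and 0.18 in carcass, where neither was called. In complex V the largest difference among the bright members was that of ATPsyndelta, at −0.53 (adjusted p = 0.013, SE 0.12). The genes called for the difference under all alternatives run for it were ND-19, ND-B14.5B, ND-B16.6, ND-B17, ND-B17.2, ND-MNLL and COX5B. Across the 46 bright members the log2 fold changes in carcass and gut, which come from different arrays, had a Pearson r of 0.36 and a Spearman rho of 0.15.

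Between the tissues of wt flies the bright members were mostly higher in gut, with 32 called higher and 4 lower and a median log2 fold change of 0.31. Of all 9964 probe sets tested in that comparison 31.7% were higher and 50.7% lower, with 39.7% past 2-fold, and the median was −0.32. By complex the median was 0.28 in complex I, 0.36 in complex III, 0.61 in complex IV and 0.31 in complex V. In nub1 flies 4 bright members were higher in gut (10 without nub1 gut replicate 2) and 18 lower, with a median of −0.08, beside 26.4% higher, 56.4% lower, 38.4% past 2-fold and a median of −0.46 among 9436 probe sets. The direction of this comparison depended on the scaling of the arrays. Under quantile normalization 3 bright members were higher and 19 lower in wt gut (median −0.07), and 0 and 42 in nub1 gut (−0.48). With each array centred on its median 38 were higher and 1 lower in wt gut (0.65), and 22 and 2 in nub1 gut (0.29). Set against the median of all probe sets tested, the bright members stood at 0.64 in wt as deposited and 0.19 under quantile normalization, and in nub1 at 0.38 and −0.14.

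**Figure D4:**
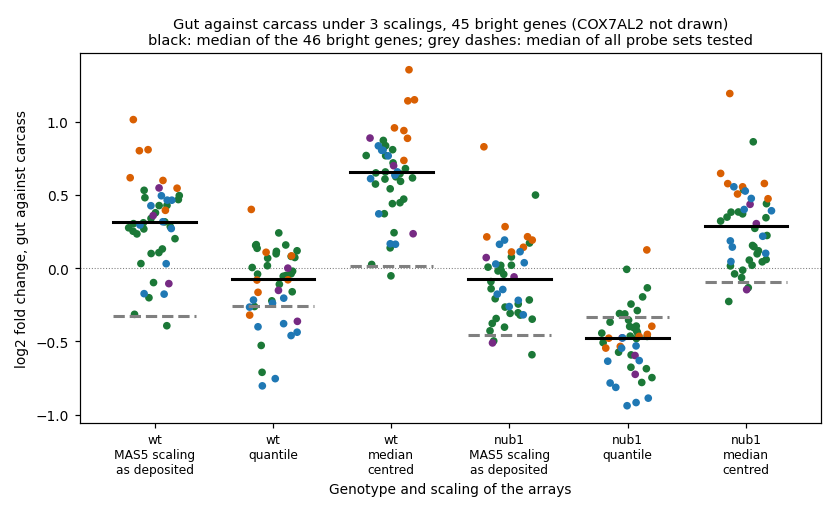
Log2 fold change of gut against carcass for 45 bright members (points, green complex I, purple III, orange IV, blue V) in wt and nub1 flies under the deposited scaling, quantile normalization and median centring. The black line is the median of all 46 bright members, which moves from 0.31 to −0.07 and 0.65 in wt and from −0.08 to −0.48 and 0.29 in nub1, and the grey dashes are the median of all probe sets tested.

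COX7A and COX7AL2, the 2 genes for the COX7A subunit, ran in opposite directions between the tissues. COX7A gave 1454, 1486 and 1484 in wt carcass and 3047, 2982 and 2938 in wt gut, a log2 fold change of 1.01 (adjusted p = 6.7e-07, SE 0.09), and it was called higher in wt gut under each of the scalings. In nub1 its log2 fold change was 0.83 as deposited, and 0.12 under quantile normalization, where it was not called. COX7AL2 gave 165, 139 and 148 in wt gut and 159, 87.6 and 165 in nub1 gut, beside the carcass values above. Its log2 fold changes of gut against carcass were −2.41 (adjusted p = 2.8e-07, SE 0.18) in wt and −3.29 (adjusted p = 1.9e-08, SE 0.18) in nub1, called under each scaling. The core genes ND-75 and ND-51 were lower in wt gut under the deposited scaling, at −0.32 (adjusted p = 0.0017, SE 0.07) and −0.39 (adjusted p = 0.00036, SE 0.07), and with median centring neither was called, at 0.02 and −0.05.

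Of the 20 dim members, 11 had a signal under 10 on all 12 arrays, and 3 more (COX6AL, ATPsynGL and ATPsynepsilonL) passed 10 on some arrays but on all 3 of no group. These 14 were not tested. Signals near 10 are close to background, so no level is given to such a gene. The 11 genes under 10 throughout were ND-20L, ND-24L, ND-51L1, ND-B14.5AL, UQCR-14L, COX4L, COX5BL, COX6AL2, COX6CL, COX7AL and ATPsynCF6L, with a highest signal of 9.63, for ND-B14.5AL. A bright namesake was found for 10 of the dim members, such as ND-20 for ND-20L and COX4 for COX4L. Of 23 measured testis genes 16 were also under 10 on every array, among them Mst87F, dj, betaTub85D and the protamine genes ProtA and ProtB. Of the others on that list, mia gave 106 to 143 in wt gut and twe 136 to 195 in wt carcass. The gene bol gave 19.3 to 40.1 over the 12 arrays. Mst84Dc, Mst84Dd, Mst98Ca and Pglym87 passed 10 on some arrays.

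**Figure D5:**
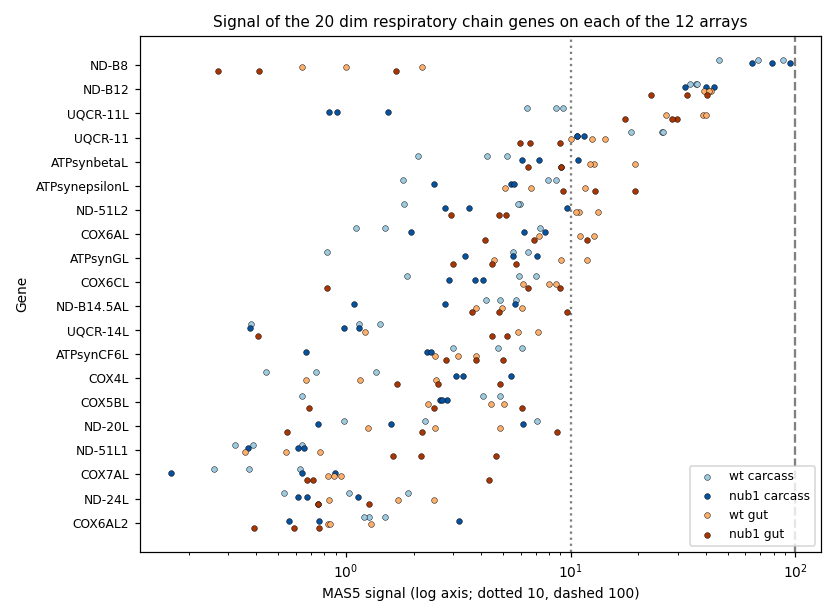
MAS5 signal of the 20 dim members on each of the 12 arrays (points, coloured by group, log axis), with lines at 10 and 100. ND-B8 lies between 45.6 and 94.9 in carcass and at most 2.18 in gut, and UQCR-11L between 17.4 and 40.2 in gut and at most 9.30 in carcass.

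Of the 6 dim members that were tested, ND-B8 and UQCR-11L were far apart between the tissues, and each passed the filter on low signal only through the tissue where it is high. ND-B8, a complex I matrix arm subunit with a thioredoxin fold, gave 88.2, 68.2 and 45.6 in wt carcass and 94.9, 78.6 and 64.5 in nub1 carcass, and at most 2.18 in gut. Against the floor of 10 it was at least 6.50-fold higher in carcass than in gut in wt and at least 7.83-fold higher in nub1. Because of that filter no p-value is given for either gene. UQCR-11L had the opposite pattern, with 38.7, 40.2 and 26.5 in wt gut and 29.7, 17.4 and 28.4 in nub1 gut. It was at least 3.46-fold higher in gut than in carcass in wt and at least 2.45-fold higher in nub1. ND-B12, a membrane arm subunit, gave 22.7 to 43.7 over the 12 arrays and was called in no comparison.

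UQCR-11, the hinge subunit of complex III, was lower in nub1 carcass, where its signals near 10 are close to background. It gave 18.6, 25.5 and 25.8 in wt and 10.7, 10.7 and 11.4 in nub1, a log2 fold change of −0.66 (adjusted p = 0.0048, SE 0.13) on the log2(signal + 10) scale, which understates the change of a dim gene. This call passed under all 24 alternatives, but with nub1 signals so low the size of the fall is uncertain. In gut it gave 14.2, 10.1 and 12.5 in wt and 5.97, 9.02 and 6.60 in nub1. ND-51L2 gave 13.3, 10.9 and 10.5 in wt gut and 4.80, 5.14 and 2.94 in nub1 gut, and ATPsynbetaL 12.7, 19.3 and 12.2 in wt gut and 6.47, 9.05 and 9.07 in nub1 gut. In gut all 3 genes passed the filter on low signal only through the wt arrays, with nub1 signals near background, so no fold is given. UQCR-11 and ND-51L2 are the 2 dim members among the 23 called in gut, and their calls passed under 6 and 17 of the 24 alternatives. ATPsynbetaL was not called in gut but for the difference between the tissues, with 3 of its 4 group means under 10.

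The members with several probe sets did not all give the same call. A second probe set of ND-ACP had a log2 fold change in gut of −0.43 (adjusted p = 0.0011, SE 0.08), where the brightest gave −0.15 (adjusted p = 0.2, SE 0.09) and a further one −0.12. A second probe set of COX7B gave −0.33 (SE 0.09, adjusted p = 0.010) in gut, where the brightest gave −0.13 (adjusted p = 0.34, SE 0.10). For ND-B17 and ATPsyngamma the second probe sets were also called lower in gut, at −0.52 and −0.29, and that of ATPsynbeta was not, at −0.11. The second probe set of COX7C was dim, with a mean signal of 4.62 in wt carcass and 16.1 in nub1 carcass. It was called higher in nub1 carcass, where the brightest was not called. In carcass it passed the filter on low signal only through the nub1 arrays, with wt signals near background, so no fold is given. Probe sets shared with another gene stood for 3 of the genes without their own. That of ATPsynG and beat-Vb was higher in carcass (0.46, SE 0.08, adjusted p = 0.0016) and lower in gut (−0.25, SE 0.08, adjusted p = 0.029). That of COX6B and CG18809 was higher in carcass (0.46, adjusted p = 0.029), and that of ND-AGGG and CG40472 lower in gut (−0.51, adjusted p = 0.026).

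Complex II, the succinate dehydrogenase, falls outside the naming rule and gave values of the same signs. Of 6 listed genes 5 were measured and 3 tested, SdhB (the iron-sulphur subunit), SdhC and SdhD (the membrane anchors), and all 3 were lower in nub1 gut. SdhC gave 1452, 1617 and 1506 in wt gut and 1337, 1059 and 1338 in nub1 gut, a log2 fold change of −0.30 (adjusted p = 0.04, SE 0.10), and 978, 993 and 948 in wt and 1196, 1405 and 1363 in nub1 carcass, a log2 fold change of 0.43 (adjusted p = 0.012, SE 0.10). SdhC was the complex II gene called in carcass. SdhB and SdhD had log2 fold changes of −0.37 (adjusted p = 0.013, SE 0.10) and −0.34 (adjusted p = 0.011, SE 0.09) in gut. For the difference between the tissues the values of SdhB, SdhC and SdhD were −0.69, −0.73 and −0.56, and all 3 passed (adjusted p of 0.0063 to 0.013). The testis-type genes SdhAL and SdhBL were at or near background, with a highest signal of 11.5 for SdhAL.

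Of 7 chain subunits with other names (blw, RFeSP, Cyt-c1, levy, cype, sun and ox), 2 were called lower in gut, where 20.8% of all probe sets were, and 0 in carcass. RFeSP, the Rieske iron-sulphur protein of complex III, gave −0.32 (adjusted p = 0.04, SE 0.11), and Cyt-c1, its cytochrome c1, −0.42 (adjusted p = 0.0057, SE 0.10). Both pass electrons on within complex III. Among 11 mitochondrial carriers and porins, 9 of them tested in carcass and in gut, Mpcp1, a phosphate carrier, was higher in carcass (0.74, SE 0.21, adjusted p = 0.031), and porin, the channel of the outer membrane, was lower in gut (−0.19, SE 0.07, adjusted p = 0.042). Of 8 measured assembly factors, of 21 listed, Surf1, which serves complex IV, was higher in gut (0.64, SE 0.14, adjusted p = 0.005) and Bcs1, which serves complex III, lower (−0.58, SE 0.15, adjusted p = 0.01). Of 8 measured regulators of mitochondrial genes, ewg, the fly relative of a vertebrate nuclear respiratory factor, was higher in carcass (0.44, SE 0.10, adjusted p = 0.0078), and the nuclear receptor gene ERR was lower there (−0.49, SE 0.11, adjusted p = 0.0082). Neither was called in gut. Among all probe sets tested 14.1% were higher and 20.8% lower in gut, and 7.76% higher and 7.70% lower in carcass. For the carriers, assembly factors and regulators, 1 call in a direction among 8 or 9 tested genes is close to those shares.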

How the data were processed

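RNA from pools of 20 female flies was hybridised by the authors to Affymetrix Drosophila Genome 2.0 arrays, 12 in all. The deposited values are MAS5 signal intensity per probe set on a linear scale, made by the authors in Affymetrix Expression Console with a target of 100 on every array, without filtering or pooling. The sources used here do not give software versions or the annotation release. Such scaling makes each signal relative to the rest of its array. Groups were taken from the sample labels, which do not say whether pools of different groups were raised together.

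Of 18952 probe sets, 183 controls were left out and 18769 used. By the platform annotation 13647 had 1 gene, 402 several and 4720 none, and 13544 symbols were updated through Entrez identifiers, 103 staying as given. A constant of 10 was added to each signal before the log2 step, and limma 3.58.1 (R 4.3.3, trended variance) fitted all 4 groups together, with 8 residual and 3.66 prior degrees of freedom. Testing required a signal of 10 or more on every array of at least 1 compared group. P-values were adjusted by Benjamini-Hochberg over all probe sets tested, and an adjusted p under 0.05 was a call. Because the signal is offset by 10, folds of dim genes are understated, and a fold against a group below 10 was set against a floor of 10 and written as "at least".

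The text names, per complex, the brightest members and those with the largest changes, the core subunits of complex I, every dim member and the members nearest the limit of 100, and of each pathway list the largest changes. The members and lists were chosen with earlier results of these data known, and the arms of complex I were assigned after the values had been seen. The alternatives were pseudocounts of 1 and 32, no filter, other scalings, no variance trend, only the compared arrays, the replicate block, the t-test of the methods, and arrays left out singly or in pairs. The scripts were tested on simulated data. Tables and figures used Python 3.11.15, numpy 2.4.6, pandas 2.3.3 and matplotlib 3.10.9.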

Additional observations from a re-analysis of the deposited data

Results flagged for a closer look

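In 21 members the nub1 effect differed between the tissues by the direct test of gut minus carcass (limma, adjusted over all probe sets), every time toward a lower value in gut. Among all 10199 probe sets tested for this difference 8.67% were called lower and 5.29% higher. In complex I the differences on the log2 scale were −0.48 for ND-18, −0.61 for ND-19, −0.50 for ND-20, −0.52 for ND-ASHI, −0.64 for ND-B14.5B, −0.66 for ND-B16.6 and −0.56 for ND-B17. They were −0.58 for ND-B17.2, −0.51 for ND-B18, −0.62 for ND-MNLL, −0.46 for ND-PDSW and −0.42 for ND-SGDH. In complex IV they were −0.47 for COX4, −0.70 for COX5B, −0.89 for COX7AL2 and −0.59 for COX8. In the ATP synthase they were −0.47 for ATPsynB, −0.46 for ATPsynO, −0.53 for ATPsyndelta, −0.39 for ATPsyngamma and −0.81 for ATPsynbetaL. That last value rests on signals near background, since ATPsynbetaL is dim, was tested only through wt gut and had the other 3 group means under 10. The adjusted p ran from 0.0015 for ND-MNLL to 0.049 for COX4. Muscle, fat body, ejaculatory duct and eggshell markers also varied among these arrays, with the values given above, and their part was not tested.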

How the results depend on the processing

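Counts here cover all 66 members. In carcass, where 7 were called, the count was 12 under quantile normalization, 4 with median centring, 14 from the 6 carcass arrays alone and 13 without the 2 gut arrays with most eggshell transcripts, and ran from 3 to 12 when arrays were left out singly. In gut, where 23 were called, it was 13 with median centring, 12 from the 6 gut arrays alone and 8 by the t-test of the methods, and 17 to 23 with single arrays left out, all of them lower in nub1. For the difference between the tissues, where 21 were called, it was 7 with median centring, 33 without the 2 nub1 gut arrays with ejaculatory duct transcripts and 13 to 23 with single arrays left out. Between gut and carcass the direction turned with the scaling. In wt 41 were called, and under quantile normalization 26, mostly lower in gut, with single-array values of 37 to 44. In nub1 24 were called, 45 under quantile normalization and 26 with median centring, mostly higher in gut, with single-array values of 20 to 30. The median of the bright members in gut against carcass was −0.072 under quantile normalization and 0.65 with median centring in wt, and −0.48 and 0.29 in nub1. Without the 2 arrays with ejaculatory duct transcripts it was −0.20 in nub1, and the nub1 gut median against wt was −0.37. COX8 in nub1 gut against carcass turned to −0.48 under quantile normalization. The carcass and gut medians kept their sign under all 22 alternatives run for them. The cause of these shifts was not tested. With the replicate block the counts were 5, 19, 14, 40 and 22 in the order above. Deviations of same-numbered arrays from their group means had correlations of −0.35 to 0.33 between groups, so no common pairing by number was seen. With 3 arrays per group this cannot exclude that same-numbered gut and carcass came from the same flies. Dim members near a signal of 10 have no usable level.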

Other observations

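The gut calls were also counted by chromosome arm, a split looked at after the values had been seen and with no test between arms. On the X chromosome 8 of 10 bright members were called lower in gut, against 16.9% of all 1383 single-gene probe sets tested there. On the other arms it was 6 of 11 on 2L (22.6% of all), 3 of 6 on 2R (21.6%), 2 of 9 on 3L (21.6%) and 2 of 9 on 3R (20.0%). Of the 10 X-linked bright members 8 belong to complex I, the complex with most calls, and 6 of those 8 were called. Within complex I it was 5 of 8 on 2L, 3 of 3 on 2R, 0 of 5 on 3L and 0 of 1 on 3R. The X-linked bright members had a median log2 fold change of −0.38 in gut and 0.15 in carcass.

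In the citrate cycle, which supplies NADH and succinate to the chain, Idh3b, a subunit of the NAD-dependent isocitrate dehydrogenase, was lower in both tissues. Its signal was 268, 308 and 280 in wt carcass and 71.5, 82.5 and 83.3 in nub1 carcass, a log2 fold change of −1.73 (limma, adjusted p = 3.7e-07). In gut it gave 245, 230 and 249 in wt and 64.7, 57.8 and 57.8 in nub1, a log2 fold change of −1.84 (adjusted p = 1.2e-07). The wt and nub1 arrays were far apart in each tissue, and no other tested gene of this list was called past 2-fold. Scsalpha1, of succinyl-CoA synthetase, was lower in gut (−0.45, adjusted p = 0.00049), and muc, of the pyruvate dehydrogenase complex, was higher in carcass (0.45, adjusted p = 0.0073). Of 9 genes of the list tested in each tissue, 2 were called lower in gut, where 20.8% of all probe sets were. In carcass 1 was called higher and 1 lower, against 7.76% and 7.70%.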
